A study of Homo sapiens with 18 samples.

Results

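The genes described here code for the proteins that find and mark splice sites in human pre-mRNA: the SR proteins (symbols SRSF and a number), the heterogeneous nuclear ribonucleoproteins (HNRNP), the SF3A and SF3B subunits of the U2 particle (SF3) and the core proteins of the small nuclear ribonucleoproteins (SNRP). Members were taken by symbol alone from a table of expression values, with loci that merge several genes left out and the most highly expressed locus kept where a symbol occurred more than once. That gave 47 genes of 26004 named loci: 11 SRSF, 19 HNRNP, 7 SF3 and 10 SNRP genes. Of these, 42 were expressed highly enough to be tested (10, 16, 7 and 9), that is, 3 or more of the 18 libraries held 1 FPKM or more. FPKM is an expression level corrected for gene length and library size.

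The lines SUDHL6, SUDHL4 and Farage are established human cultures of germinal centre B cell type diffuse large B cell lymphoma. Each was treated with an inhibitor of BCL6 or with its solvent DMSO, with 3 libraries in each of 6 groups, all grown in RPMI1640 with 10% FBS. BCL6 is a transcriptional repressor that germinal centre B cells depend on. Sample titles and descriptions give 12 h of treatment and source names give 24 h, and neither can be chosen from the labels. Neither the compound nor its dose is given in the sources used here, nor is it said whether the 3 libraries of a group came from separate cultures. Each p therefore measures the spread between libraries of a group, which may be technical. That spread was pooled over the 6 groups, so a p is not specific to the spread of the line named. Each line is a single established culture.

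Splicing removes introns from pre-mRNA and joins exons, and the spliceosome that does it is assembled anew on each intron. The U1 particle pairs with the start of the intron and the U2 particle, with its SF3A and SF3B subunits, with the branch site near its end. Rings of Sm proteins form the core of both. SR proteins bind exons and recruit these particles, hnRNP proteins coat the transcript and often block nearby sites, and the balance between them decides which exons are kept. Many SR and hnRNP genes also hold exons whose inclusion sends their own transcripts to decay, and a gene-level value does not separate such transcripts from productive ones. B cells use this machinery to switch between membrane and secreted immunoglobulin and between forms of the phosphatase CD45.

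The FPKM sums ran from 1130063 to 1548453 per library and read counts were not in the table, so absolute depth is unknown. Relative depth, read from whole-read steps at short loci in 16 libraries, spanned 0.691 to 1.15 of the median, and in each line every treated library with a value lay below every DMSO library. Its part in the results was not tested. B cell identity was checked from 4 marker genes with a locus of their own (MS4A1, PAX5, BCL6 and MME). Their summed level fell from 763 to 866 FPKM in DMSO to 323 to 479 FPKM under the inhibitor in SUDHL6, from 1126 to 1189.9 to 755 to 808 FPKM in SUDHL4, and from 549 to 575 to 300.4 to 313 FPKM in Farage. In SUDHL6 most of the sum was MS4A1, at 594 to 730 FPKM in DMSO and 245 to 386 FPKM under the inhibitor. There PAX5 fell from 42.9 to 47.1 FPKM to 6.16 to 14.2 FPKM. BCL6 overlapped between treatments, at 72.8 to 99.8 and 61.8 to 84.8 FPKM. In Farage under the inhibitor, 3 of the 4 markers held 1 FPKM or more in all libraries. The 6 T and NK cell markers with a locus summed to at most 1.48 FPKM and the 5 monocyte markers to at most 3.51 FPKM in any library. The 9 fibroblast and epithelial markers reached 52.2 to 56.1 FPKM in SUDHL4 under DMSO and 16.3 to 17.7 FPKM under the inhibitor, mostly DCN and THY1, and at most 2.76 FPKM in the other lines. Whether these shifts bear on the splicing genes was not tested. The third SUDHL6 library of each treatment stood apart from its replicates, with Pearson's r across genes of 0.8797 to 0.9089, where all other pairs of libraries within a group reached 0.9471 to 0.973. Where leaving out that pair of libraries changed a SUDHL6 call or a quoted F test, the value without it is given. Between treatments in SUDHL6, the third libraries deviated from their groups together (r = 0.664). The first and second libraries correlated at 0.309 and 0.366 within a number and at 0.271 and 0.320 across numbers. The replicate number thus set apart only the third libraries. Values with that number as a block are also given where the block changed a SUDHL6 call or a quoted F test.

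Under the inhibitor, splicing factor genes fell more often than they rose in every line, while 4 SR protein genes and SF3B1 rose in all of them. In SUDHL6, the calls were 8 higher and 18 lower among 42 tested genes (19 and 42.9%), where 30.2 and 33.7% of all 12201 loci tested were higher and lower. SUDHL4 had 7 higher and 26 lower (16.7 and 61.9%), against 29.6 and 37.1% of all loci. Farage had 8 higher and 18 lower (19 and 42.9%), against 29.2 and 38.0% of all loci. A gene is called here at a Benjamini-Hochberg adjusted p under 0.05 in limma, adjusted over all loci tested. The shares of genes called higher were below the background in all 3 lines, and the share called lower was furthest above it in SUDHL4. With only the first and second SUDHL6 replicates, 9 were higher and 19 lower in that line (5 and 3 SRSF, 2 and 9 HNRNP, 2 and 2 SF3, and 0 and 5 SNRP genes), and with the block 10 were higher and 24 lower.

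**Figure D1:**
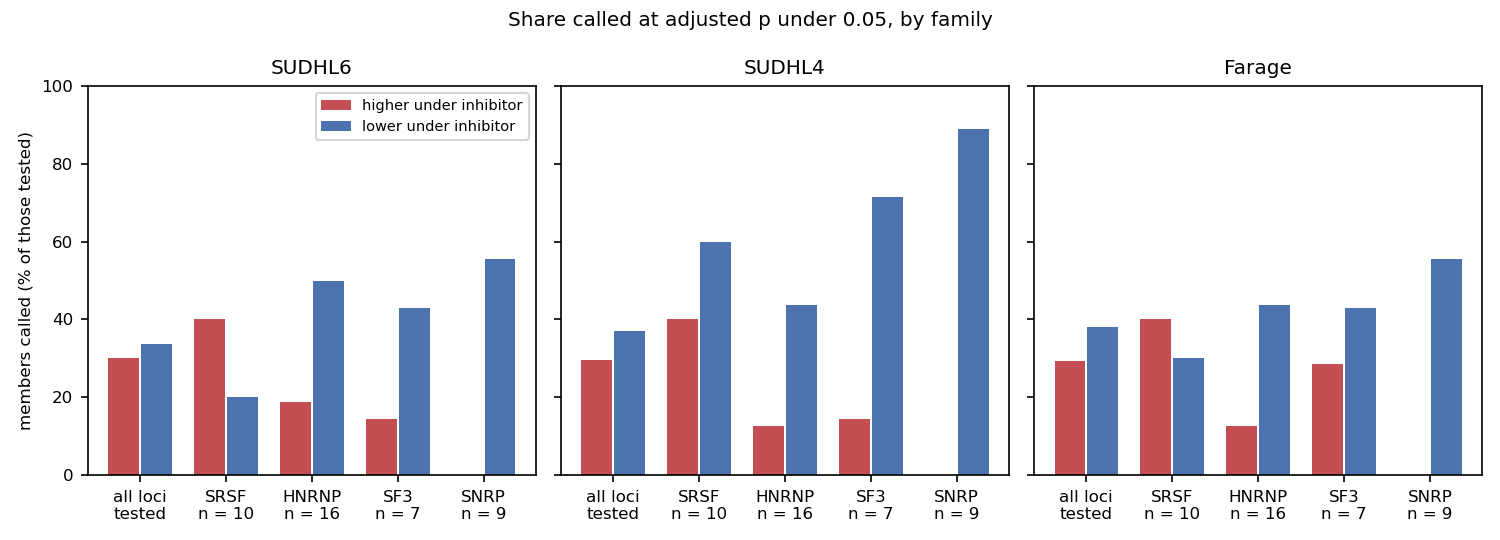
Share of tested genes called higher (red) or lower (blue) under the inhibitor in each line, in percent on the vertical axis, for all loci tested and for the SRSF, HNRNP, SF3 and SNRP families, with the number of genes under each name. The SNRP family has no red bar in any line and its blue bar reaches 88.9% in SUDHL4, while the SRSF family has 40% higher in each line.

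The sizes were moderate. The median log2 fold change of the 42 tested genes, on the log2(FPKM + 1) scale used throughout, was -0.21 in SUDHL6, -0.36 in SUDHL4 and -0.21 in Farage. The medians over all loci tested were -0.01, -0.04 and -0.07. Single genes ranged from -1.07 (SNRPD1) to 1.06 (HNRNPLL) in SUDHL6, from -1.26 (SF3B3) to 0.64 (SRSF4) in SUDHL4 and from -1.05 (SNRPC) to 0.59 (SRSF5) in Farage. On the average of the 3 lines 8 genes were higher and 26 lower, where 35.7 and 44.9% of all loci were. Counting only calls with a log2 fold change of at least 0.5 in size, 4 genes were higher and 10 lower in SUDHL6 (20.5 and 24.7% of all loci), 3 and 16 in SUDHL4 (21.0 and 27.4%), 1 and 9 in Farage (19.5 and 27.9%) and 3 and 12 on average (20.0 and 26.4%). All 3 treated libraries lay above all 3 DMSO libraries for 6 of the 42 genes in SUDHL6, 7 in SUDHL4 and 10 in Farage, against 27.7, 35.7 and 35.6% of all loci. They lay below for 17, 28 and 23 genes, against 30.4, 42.3 and 44.8%. In bulk RNA, fewer cells that express a gene and less of its RNA per cell cannot be told apart.

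Across lines, 9 of the 42 genes were higher in at least 1 line and lower in none (36.3% of all loci were), 27 were lower in at least 1 line and higher in none (46.1%), 3 were called in both directions (6.05%), and HNRNPA0, HNRNPK and SNRPB were not called in any line. The 5 genes called higher in all 3 lines were SRSF4, SRSF5, SRSF6, SRSF11 and SF3B1, and 18.3% of all loci were higher in all 3. The 12 called lower in all 3 were SRSF1, HNRNPD, HNRNPDL, HNRNPH1, HNRNPUL1, SF3A3, SF3B3, SF3B5, SNRPC, SNRPD1, SNRPE and SNRPF, and 21.2% of all loci were. The rising group therefore held SR proteins and the branch site protein SF3B1, and the falling group reached into all 4 families. With SUDHL6 fitted alone, its calls of SRSF5, SRSF11 and SF3B3 were lost (limma adjusted p = 0.163, 0.0716 and 0.0707).

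**Figure D2:**
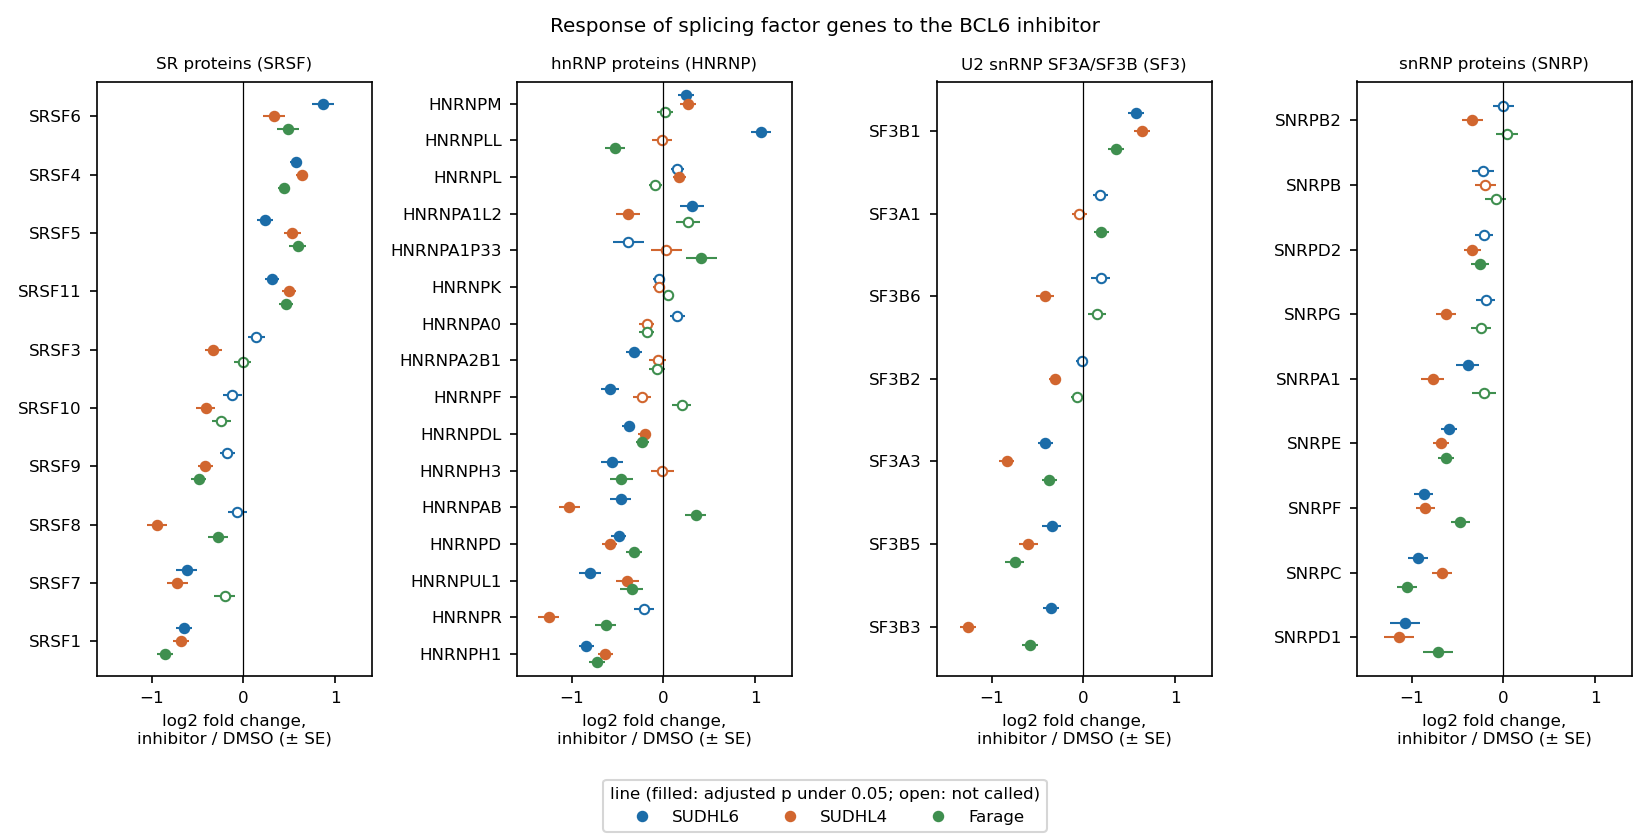
Log2 fold change of inhibitor over DMSO (horizontal axis, on log2(FPKM + 1), bars are ± SE) for each tested gene in SUDHL6 (blue), SUDHL4 (orange) and Farage (green), 1 panel per family, ordered by the average over lines. Filled points passed an adjusted p under 0.05; SRSF6, SRSF4, SRSF5, SRSF11 and SF3B1 lie to the right of 0 in all lines, and SNRPC and SNRPD1 lie near -1.

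The promoters of these genes are shown because members on opposite sides moved in the same way in all 3 lines. Windows from 250 bases before to 50 after the annotated start were taken from RefSeq (build GRCh38.p14) by symbol, and 39 of the 42 tested genes matched. Both strands were searched for 6 short motifs, and matches of different motifs may overlap. An ETS core was the run CCGGAAG, the site of a large family of growth-linked activators. The E box, which MYC and its relatives bind, was the run CACGTG. GC boxes, the sites of SP1 and its relatives, were runs of GGGCGG. The CCAAT box was searched by its own name, and the TATA box by the run TATAAA. For BCL6 the core TTCCNNGAA of its binding site was searched, where N is any base. The 250 bases before the start are printed for SRSF6 and SRSF5, which rose, and for SRSF1 and SNRPC, which fell, with every match in capitals.
SRSF6: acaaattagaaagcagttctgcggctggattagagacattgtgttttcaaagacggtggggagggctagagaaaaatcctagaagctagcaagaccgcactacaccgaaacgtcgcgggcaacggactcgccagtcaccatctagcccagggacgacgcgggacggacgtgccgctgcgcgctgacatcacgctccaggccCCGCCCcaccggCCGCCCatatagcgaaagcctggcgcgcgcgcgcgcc
SRSF5: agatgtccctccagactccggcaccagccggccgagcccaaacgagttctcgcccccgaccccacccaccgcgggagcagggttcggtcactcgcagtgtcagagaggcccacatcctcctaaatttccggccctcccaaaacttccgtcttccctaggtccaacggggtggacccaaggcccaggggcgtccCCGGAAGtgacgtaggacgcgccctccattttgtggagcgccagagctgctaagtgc
SRSF1: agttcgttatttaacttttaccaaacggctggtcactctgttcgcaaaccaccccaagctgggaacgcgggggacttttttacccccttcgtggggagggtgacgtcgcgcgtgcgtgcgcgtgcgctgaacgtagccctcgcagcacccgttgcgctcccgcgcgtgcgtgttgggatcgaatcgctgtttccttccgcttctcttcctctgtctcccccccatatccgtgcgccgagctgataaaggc
SNRPC: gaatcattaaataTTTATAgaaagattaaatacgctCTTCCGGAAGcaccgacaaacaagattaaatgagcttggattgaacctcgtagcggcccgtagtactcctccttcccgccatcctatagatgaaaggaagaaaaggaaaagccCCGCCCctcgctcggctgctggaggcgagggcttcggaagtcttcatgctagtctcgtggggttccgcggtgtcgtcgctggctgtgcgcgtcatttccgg
They lie at chr20:43457646-43457895 (plus strand), chr14:69766892-69767141 (plus), chr17:58007247-58007496 (minus) and chr6:34757255-34757504 (plus). The SRSF6 stretch holds 2 GC boxes read on the opposite strand, SRSF5 holds 1 ETS core, SRSF1 holds none of the motifs, and SNRPC holds an ETS core read on both strands (CTTCCGGAAG in capitals), 1 GC box and 1 TATA box, both on the opposite strand. Over the 39 windows the ETS core occurred in 41.0%, against 19.7% of 7467 windows of named loci tested and 10.7% of all 27305 windows. It was found in 2 of the 5 genes higher in all lines and in 4 of the 10 windows available for genes lower in all lines. Other motifs occurred in shares of the 39 windows and of the windows of loci tested of 15.4 and 10.2% (E box), 56.4 and 69.3% (GC box), 35.9 and 37.1% (CCAAT) and 12.8 and 5.49% (TATA box). The BCL6 core was found in 1 of the 39 windows (2.56%), against 4.25% of the loci tested. A match is a run of letters only, and these windows may start at another promoter than the cells use.

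Among the SR proteins, 4 of 10 tested genes rose in every line, the same 4 each time, while 2 fell in SUDHL6, 6 in SUDHL4 and 3 in Farage. Of all loci, 30.2, 29.6 and 29.2% rose and 33.7, 37.1 and 38.0% fell in SUDHL6, SUDHL4 and Farage. SRSF6 (chr20:42086201-42108011), which binds exonic enhancers through its RNA recognition motifs, had the largest increase of the family on average. Positions beside gene names are those of the deposited loci on hg19, from the first to the last base of the transcripts grouped there. In SUDHL6, SRSF6 stood at 56.8, 55.4 and 55.4 FPKM in DMSO and then at 133, 85.7 and 94.4 FPKM with the inhibitor. SUDHL4 SRSF6 levels were 40.2, 42.9 and 42.4 FPKM in DMSO and 53.7, 59.4 and 46.8 FPKM under the inhibitor. Farage SRSF6 levels were 56.4, 56.1 and 55.7 FPKM and then 79.6, 81.7 and 75.5 FPKM. DMSO libraries of a line were close together, every treated library lay above them, and the first treated SUDHL6 library was far above the other treated ones. For SRSF6, the log2 fold changes were 0.86, 0.34 and 0.49 (SE 0.12 each) in SUDHL6, SUDHL4 and Farage, with limma adjusted p = 2.12e-05, 0.0242 and 0.00254. The SUDHL4 call was lost without DMSO replicate 1, inhibitor replicate 1 or inhibitor replicate 2 of that line (adjusted p from 0.0587 to 0.108).

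SRSF5 (chr14:70233000-70282636), an SR protein whose level was the highest of the family on average, behaved similarly in direction. In SUDHL6, SRSF5 was at 195, 177 and 187 FPKM in DMSO and 258, 202 and 202 FPKM under the inhibitor. SUDHL4 SRSF5 levels went from 136, 141 and 156 FPKM to 213, 214 and 201 FPKM. Farage SRSF5 levels went from 168, 151 and 145 FPKM to 237, 244 and 219 FPKM. No treated library overlapped the DMSO libraries of its line, although in SUDHL6 the gap was narrow. For SRSF5, the log2 fold changes were 0.23, 0.53 and 0.59 (SE 0.09 each; limma adjusted p = 0.037, 0.00012 and 4.64e-05). Without the first treated SUDHL6 library the SUDHL6 change was 0.12 with adjusted p = 0.203, and the call was also lost without DMSO replicate 2 (adjusted p = 0.116) or 3 (adjusted p = 0.0684) of that line.

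SRSF4, a long SR protein that acts on exonic enhancers, and SRSF11, an SR-related protein that contacts the U2AF splice site factor, completed the rising group. SRSF4 had mean levels of 47.0 ± 4.79, 37.2 ± 0.996 and 48.9 ± 0.804 FPKM (SD, n = 3) in DMSO of SUDHL6, SUDHL4 and Farage. Under the inhibitor they were 70.0 ± 2.88, 58.6 ± 3.32 and 66.7 ± 1.48 FPKM, with log2 fold changes of 0.57, 0.64 and 0.44 (SE 0.07 each; limma adjusted p = 3.16e-06, 7.62e-07 and 3.24e-05). SRSF11 rose from 84.1 ± 5.91, 67.0 ± 2.36 and 77.6 ± 2.12 to 105 ± 12.2, 95.2 ± 5.05 and 107 ± 3.13 FPKM (SD, n = 3). Its log2 fold changes were 0.31, 0.50 and 0.46 (SE 0.08 each; limma adjusted p = 0.0029, 4.48e-05 and 8.86e-05). Treated and DMSO libraries were separate for SRSF4 in all lines, and those of SRSF11 overlapped in SUDHL6. The SRSF11 locus shares its span with LRRC40 (mean 14.7 FPKM).

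SRSF1 (chr17:56065813-56087130), the best studied SR protein and a known proto-oncogene product, moved the other way. In SUDHL6, SRSF1 was at 83.7, 88.9 and 107 FPKM in DMSO and then at 55.8, 53.7 and 67.5 FPKM with the inhibitor. SUDHL4 SRSF1 levels went from 78.5, 77.6 and 74.9 FPKM to 47.6, 47.7 and 47.5 FPKM. Farage SRSF1 levels went from 107, 105 and 107 FPKM to 60.3, 59.0 and 55.8 FPKM. All treated libraries lay well below the DMSO libraries of their line, and SUDHL4 replicates were almost identical. For SRSF1, the log2 fold changes were -0.65, -0.68 and -0.86 (SE 0.09 each; limma adjusted p = 1.42e-05, 7.62e-06 and 8.29e-07). The difference between lines did not pass the test for SRSF1 (F test, adjusted p = 0.310), but it did without the SUDHL6 libraries that stood apart (adjusted p = 0.0207), with the replicate block (0.0456) and with library weights (0.0430).

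The remaining SR proteins fell in some lines. SRSF7, which also serves as an adaptor for mRNA export, fell by 0.62 in SUDHL6 (adjusted p = 0.000264) and by 0.72 in SUDHL4 (adjusted p = 6.03e-05) on the log2 scale in limma, and was at -0.21 in Farage (adjusted p = 0.129). SRSF9 fell by 0.41 in SUDHL4 and by 0.49 in Farage, and in SUDHL6 it was called without the libraries that stood apart (-0.20, adjusted p = 0.0329) and with the replicate block (-0.17, adjusted p = 0.0125). Its locus shares its span with DYNLL1 (mean 223 FPKM). SRSF3, the smallest SR protein, and SRSF10, which turns into a splicing repressor when dephosphorylated, fell in SUDHL4 by 0.33 and 0.41. SRSF10 was also called in SUDHL6 with the replicate block (-0.12, adjusted p = 0.0482). The SRSF10 locus (mean 66.1 FPKM) shares its span with PNRC2 (mean 107 FPKM). The SRSF3 call in SUDHL6 depended on the libraries that stood apart: its log2 fold change was 0.14 (adjusted p = 0.200) with all libraries and 0.30 (adjusted p = 0.0103) with the first and second replicates. SRSF8, an intronless relative of SRSF2, fell mainly in SUDHL4 and is described with the genes that differ between lines. The summed level of the SRSF genes was 1012 ± 77.7, 820 ± 0.468 and 934 ± 16.5 FPKM (SD, n = 3) in DMSO of SUDHL6, SUDHL4 and Farage and 1067 ± 72.4, 797 ± 49.3 and 972 ± 20.4 FPKM under the inhibitor.

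**Figure D3:**
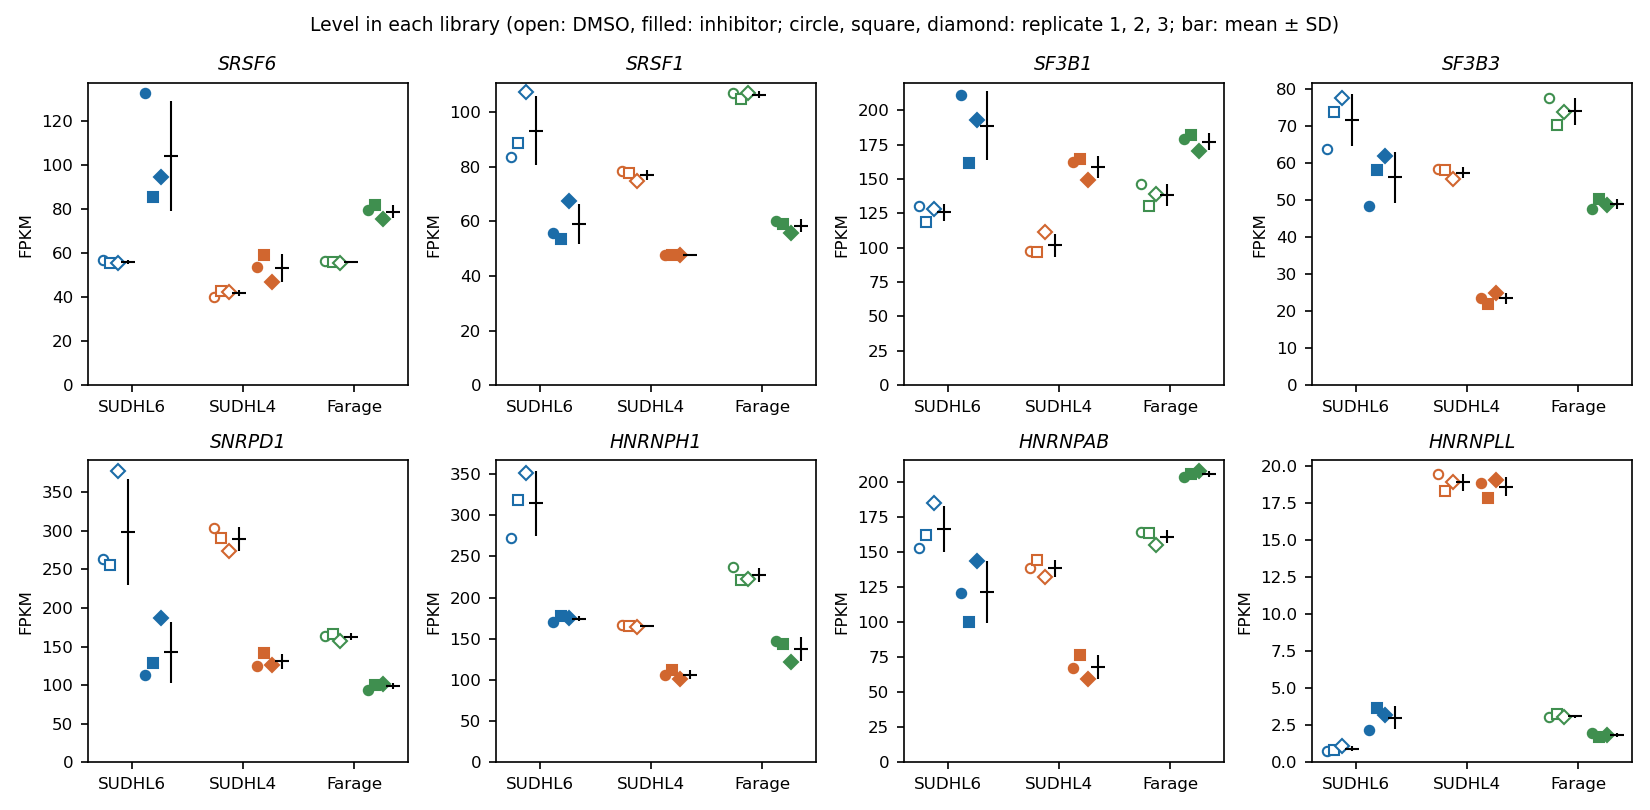
FPKM in each library (vertical axis, linear and starting at 0) for 8 genes in the 3 lines, open symbols for DMSO and filled symbols for the inhibitor, with circles, squares and diamonds for replicates 1, 2 and 3 and bars for mean ± SD. SRSF6 and SF3B1 rise and SRSF1, SF3B3, SNRPD1 and HNRNPH1 fall in every line, HNRNPAB falls in SUDHL6 and SUDHL4 but rises in Farage, and HNRNPLL differs between lines already in DMSO.

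The SNRP genes moved in 1 direction only: none of the 9 tested rose in any line, and 5 fell in SUDHL6, 8 in SUDHL4 and 5 in Farage. The shares that fell were 55.6, 88.9 and 55.6%, where 33.7, 37.1 and 38.0% of all loci fell and 30.2, 29.6 and 29.2% rose. SNRPD1 (chr18:19192088-19220577), part of the Sm ring, had the largest decrease on average among all 42 genes. In SUDHL6, SNRPD1 was at 263, 255 and 377 FPKM in DMSO and then at 113, 128 and 187 FPKM with the inhibitor. SUDHL4 SNRPD1 levels went from 304, 291 and 274 FPKM to 125, 142 and 126 FPKM. Farage SNRPD1 levels went from 164, 167 and 157 FPKM to 94.1, 100 and 102 FPKM. Treated and DMSO libraries did not overlap in any line, and the third SUDHL6 replicate was the highest of its group under both treatments. For SNRPD1, the log2 fold changes were -1.07, -1.14 and -0.72 (SE 0.16 each; limma adjusted p = 4.18e-05, 1.99e-05 and 0.00122).

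SNRPC (chr6:34724871-34741634), the U1 protein that steadies pairing with the start of the intron, had the largest decrease of all 42 genes in Farage. In SUDHL6, SNRPC was at 149, 137 and 178 FPKM in DMSO and then at 74.0, 77.5 and 90.2 FPKM with the inhibitor. SUDHL4 SNRPC levels went from 64.8, 66.1 and 66.2 FPKM to 39.2, 45.7 and 38.2 FPKM. Farage SNRPC levels went from 64.1, 78.4 and 70.4 FPKM to 31.3, 33.0 and 36.6 FPKM. The groups were separate in every line, and SUDHL6 stood above the other lines before treatment. For SNRPC, the log2 fold changes were -0.93, -0.67 and -1.05 (SE 0.11 each; limma adjusted p = 3.65e-06, 6.92e-05 and 8.83e-07). SNRPF and SNRPE, both Sm ring proteins, also fell in all lines, SNRPF by 0.87, 0.85 and 0.47 and SNRPE by 0.59, 0.68 and 0.62 on the log2 scale in SUDHL6, SUDHL4 and Farage.

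SNRPD2 (chr19:46189906-46210811), the Sm protein with the highest level of the family, changed less. In SUDHL6, SNRPD2 was at 309, 271 and 327 FPKM in DMSO and then at 288, 245 and 249 FPKM with the inhibitor. SUDHL4 SNRPD2 levels went from 451, 425 and 415 FPKM to 346, 377 and 302 FPKM. Farage SNRPD2 levels went from 252, 299 and 275 FPKM to 228, 220 and 240 FPKM. The libraries overlapped in SUDHL6 and were separate in SUDHL4 and Farage. For SNRPD2, the log2 fold changes were -0.21, -0.34 and -0.26 (SE 0.10 each; limma adjusted p = 0.0686, 0.00632 and 0.0277). The Farage call was lost without DMSO replicate 2 or 3 or inhibitor replicate 1 or 2 of that line (adjusted p from 0.0605 to 0.119) and under median-ratio scaling (-0.18, adjusted p = 0.115). Its locus shares its span with QPCTL (mean 7.25 FPKM). SNRPG, another Sm ring protein, and SNRPB2, a U2 protein, fell in SUDHL4 (-0.63 and -0.34). With the replicate block SNRPG was called in SUDHL6 (-0.19, adjusted p = 0.0263) and Farage (-0.25, adjusted p = 0.00847) as well, and in Farage also without the SUDHL6 libraries that stood apart (adjusted p = 0.00993). The test of the difference passed for SNRPG (F test, adjusted p = 0.0482) and not for SNRPB2 (adjusted p = 0.117, and 0.0233 with the replicate block), and for SNRPG it no longer passed without most single libraries (adjusted p up to 0.133). The SNRPB2 call was lost without DMSO replicate 1 or inhibitor replicate 1 or 3 of SUDHL4 (adjusted p from 0.0508 to 0.0764). SNRPA1, the partner of SNRPB2 in the U2 particle, fell in SUDHL6 (-0.39) and SUDHL4 (-0.77), the former call being lost without DMSO replicate 3 (adjusted p = 0.0861) or inhibitor replicate 1 (adjusted p = 0.0799) of SUDHL6. SNRPB, which codes for the Sm protein that autoantibodies against the Sm complex recognise, held 353, 269 and 287 FPKM in DMSO on average and 302, 236 and 271 FPKM under the inhibitor, and passed the test in no line (lowest adjusted p = 0.105) although it did on the average of the lines (-0.17, adjusted p = 0.0303). With the replicate block SNRPB was lower in 2 lines, at -0.22 (adjusted p = 0.0319) in SUDHL6 and -0.20 (0.0477) in SUDHL4, and the call on the average was lost under median-ratio scaling (-0.11, adjusted p = 0.114) and without any 1 of 9 single libraries (adjusted p from 0.0509 to 0.0660). The summed level of the family went in SUDHL6 from 1585 ± 221 to 1151 ± 110 FPKM, in SUDHL4 from 1612 ± 65.5 to 1099 ± 111 FPKM and in Farage from 1233 ± 75.3 to 989 ± 48.0 FPKM (SD, n = 3).

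The U2 subunits split. SF3B1 (chr2:198254413-198299905), the large subunit that clamps the branch site helix and is recurrently mutated in blood cancers, rose in every line, whereas SF3B3, SF3A3 and SF3B5 fell in every line. In SUDHL6, SF3B1 was at 130, 118 and 128 FPKM in DMSO and then at 211, 161 and 193 FPKM with the inhibitor. SUDHL4 SF3B1 levels went from 97.2, 96.7 and 111 FPKM to 162, 164 and 149 FPKM. Farage SF3B1 levels went from 146, 130 and 139 FPKM to 179, 182 and 171 FPKM. Every treated library was above the DMSO libraries of its line. For SF3B1, the log2 fold changes were 0.57, 0.64 and 0.36 (SE 0.09 each; limma adjusted p = 5.35e-05, 1.73e-05 and 0.00265), and the difference between lines did not pass the test (F test, adjusted p = 0.147).

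SF3B3 (chr16:70557607-70613109), the propeller-shaped scaffold that holds SF3B1, showed the widest range between lines of this family. In SUDHL6, SF3B3 was at 63.7, 73.6 and 77.4 FPKM in DMSO and then at 48.4, 58.1 and 61.8 FPKM with the inhibitor. SUDHL4 SF3B3 levels went from 58.2, 57.9 and 55.6 FPKM to 23.6, 21.8 and 24.9 FPKM. Farage SF3B3 levels went from 77.5, 70.2 and 73.8 FPKM to 47.6, 50.2 and 48.7 FPKM. The groups were separate in each line, by little in SUDHL6 and by far in SUDHL4. For SF3B3, the log2 fold changes were -0.35, -1.26 and -0.59 (SE 0.09 each; limma adjusted p = 0.00286, 2.12e-08 and 3.37e-05). In SUDHL4 the level under the inhibitor was 0.419 of that in DMSO on the FPKM + 1 scale. SF3B3 and SF3B1 are partners of the same complex, and their mean levels under DMSO were 71.6 and 126 FPKM in SUDHL6, 57.3 and 102 FPKM in SUDHL4 and 73.8 and 138 FPKM in Farage. Under the inhibitor they were 56.1 and 189, 23.4 and 159, and 48.8 and 177 FPKM.

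SF3A3, a subunit of SF3A that contacts the U2 particle, fell by 0.41 in SUDHL6, by 0.84 in SUDHL4 and by 0.37 in Farage (SE 0.08 each; limma adjusted p = 0.000529, 5.86e-07 and 0.00114). SF3B5, a small subunit packed against SF3B3, fell by 0.35, 0.60 and 0.75 (SE 0.10 each; limma adjusted p = 0.00923, 0.000124 and 1.63e-05). Without the SUDHL6 libraries that stood apart, SF3B5 no longer passed the test in that line (-0.31, adjusted p = 0.0601). SF3B6, which touches the branch point adenosine, and SF3B2 fell in SUDHL4 (-0.42 and -0.31) and passed the test in neither other line. SF3A1, the largest SF3A subunit, was called in Farage alone, where it stood at 0.19 (adjusted p = 0.0499), with no difference between lines past the test (F test, adjusted p = 0.153, against 0.0274 without the SUDHL6 libraries that stood apart and 0.0401 with the replicate block). That Farage call was lost without any single Farage library (adjusted p from 0.0792 to 0.109). With the libraries that stood apart left out it was also called in SUDHL6 (0.17, adjusted p = 0.0358), as with the replicate block (0.18, adjusted p = 0.0153). The median of the 7 SF3 genes was -0.01 in SUDHL6, -0.42 in SUDHL4 and -0.07 in Farage, and it changed sign in SUDHL6 and Farage when libraries were rescaled by the median ratio over loci (0.01 in both).

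Of the 16 tested HNRNP genes, 3 were higher and 8 lower in SUDHL6, 2 and 7 in SUDHL4 and 2 and 7 in Farage. The shares lower were 50, 43.8 and 43.8%, where 33.7, 37.1 and 38.0% of all loci were. The shares higher were 18.8, 12.5 and 12.5%, where 30.2, 29.6 and 29.2% of all loci were. HNRNPH1 (chr5:179041092-179052245), which binds runs of guanine next to regulated exons, had the largest decrease of the family on average. In SUDHL6, HNRNPH1 was at 272, 318 and 352 FPKM in DMSO and then at 171, 177 and 175 FPKM with the inhibitor. SUDHL4 HNRNPH1 levels went from 166, 165 and 164 FPKM to 106, 112 and 101 FPKM. Farage HNRNPH1 levels went from 237, 222 and 223 FPKM to 148, 143 and 121 FPKM. The groups were separate in every line, although the lines differed in level before treatment. For HNRNPH1, the log2 fold changes were -0.84, -0.63 and -0.72 (SE 0.09 each; limma adjusted p = 1.14e-06, 1.45e-05 and 3.96e-06). Its relative HNRNPH3 fell in SUDHL6 (-0.56) and Farage (-0.46) and was at -0.01 in SUDHL4, a difference between lines that passed the test (F test, adjusted p = 0.0326) but did not pass without any single SUDHL4 library (adjusted p from 0.0529 to 0.0731) or without DMSO replicate 2 of SUDHL6 (adjusted p = 0.0521).

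HNRNPA2B1 (chr7:26191842-26253346), an exon-silencing protein that also packages microRNAs, had the highest level of the family. In SUDHL6, HNRNPA2B1 was at 397, 442 and 519 FPKM in DMSO and then at 322, 361 and 404 FPKM with the inhibitor. SUDHL4 HNRNPA2B1 levels went from 305, 301 and 311 FPKM to 287, 299 and 291 FPKM. Farage HNRNPA2B1 levels went from 328, 309 and 310 FPKM to 299, 308 and 297 FPKM. The libraries overlapped in SUDHL6, the only line in which the gene was called, and in the other lines the treated libraries lay just below the DMSO libraries. For HNRNPA2B1, the log2 fold changes were -0.32, -0.06 and -0.07 (SE 0.09 each, with limma adjusted p = 0.00586, 0.547 and 0.516). The SUDHL6 call was lost under quantile normalization (adjusted p = 0.0506) and with that line fitted alone (0.119). The difference between lines did not pass the test (F test, adjusted p = 0.156). It did pass with the replicate block (adjusted p = 0.0123) and under median-ratio scaling (0.0271). It also passed without SUDHL6 DMSO replicate 1 (0.0376) or SUDHL6 inhibitor replicate 3 (0.0436). The HNRNPA2B1 locus shares its span with CBX3 (mean 123 FPKM). HNRNPK, which binds runs of cytosine, was at 303, 263 and 344 FPKM in DMSO on average and at 293, 253 and 357 FPKM under the inhibitor, with no call (lowest adjusted p = 0.444).

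HNRNPM (chr19:8509759-8554061), which often acts as an exon silencer, was the HNRNP gene with the largest called increase on average. In SUDHL6, HNRNPM was at 128, 164 and 172 FPKM in DMSO and then at 181, 180 and 184 FPKM with the inhibitor. SUDHL4 HNRNPM levels went from 97.7, 97.2 and 94.0 FPKM to 112, 126 and 111 FPKM. Farage HNRNPM levels went from 168, 155 and 149 FPKM to 156, 158 and 165 FPKM. The groups were separate in SUDHL6 and SUDHL4 and overlapped in Farage. For HNRNPM, the log2 fold changes were 0.24, 0.26 and 0.02 (SE 0.09 each; limma adjusted p = 0.028, 0.0174 and 0.882), and the difference between lines did not pass the test (F test, adjusted p = 0.194). The SUDHL6 call of HNRNPM was lost without DMSO replicate 1 (adjusted p = 0.151) or inhibitor replicate 1 or 3 (0.0542 and 0.0616) of that line, and the SUDHL4 call without DMSO replicate 3 (0.0508) or inhibitor replicate 2 (0.0820). Quantile normalization ended the HNRNPM calls in SUDHL6, SUDHL4 and on the average (limma adjusted p = 0.0796, 0.149 and 0.0791). HNRNPL, which binds CA repeats, was higher in SUDHL4 alone (0.17, adjusted p = 0.0427), also with no difference between lines past the test (F test, adjusted p = 0.0666, against 0.0329 without the SUDHL6 libraries that stood apart and 0.0222 with the replicate block). With the block HNRNPL was called in SUDHL6 as well (0.15, adjusted p = 0.0253). The SUDHL4 call was lost without any SUDHL4 library but inhibitor replicate 3 (adjusted p from 0.0581 to 0.186) and under quantile normalization (0.11, adjusted p = 0.448). HNRNPD, also known as AUF1, a protein of mRNA decay at AU-rich elements, fell by 0.49, 0.58 and 0.32 in SUDHL6, SUDHL4 and Farage, and its relative HNRNPDL by 0.38, 0.20 and 0.23. In SUDHL4 the HNRNPDL call was lost without DMSO replicate 1 or 3 or inhibitor replicate 3 (adjusted p up to 0.0969). Under median-ratio scaling HNRNPDL was called neither in SUDHL4 (-0.13, adjusted p = 0.110) nor in Farage (-0.15, adjusted p = 0.0626). HNRNPUL1, which acts in the response to DNA breaks, fell by 0.80, 0.39 and 0.35, and its Farage call was lost without DMSO replicate 1 (adjusted p = 0.0621) or inhibitor replicate 1 (adjusted p = 0.0516) of that line.

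The response differed between lines for 18 of the 42 tested genes (42.9%), where 52.5% of all loci did (moderated F test in limma, adjusted p under 0.05). SUDHL4 had the lowest log2 fold change of the 3 lines in 21 of the 42 genes (50%), against 32.7% of all loci, Farage in 9 (21.4%, against 37.0%) and SUDHL6 in 12 (28.6%, against 30.3%). Tested pair by pair, 13 genes were lower and 1 higher in the response of SUDHL4 than of SUDHL6, where 17.8 and 14.1% of all loci were. Against SUDHL4, the Farage response was higher in 10 genes and lower in 1 (17.4 and 18.9% of all loci), and against SUDHL6 it was higher in 5 and lower in 3 (14.6 and 20.2%).

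HNRNPAB, HNRNPLL and HNRNPA1L2 were called in opposite directions in different lines, 3 of 42 genes where 6.05% of all loci were. HNRNPAB (chr5:177630726-177661790), a relative of HNRNPD that binds RNA in nucleus and cytoplasm, fell in SUDHL6 and SUDHL4 and rose in Farage. In SUDHL6, HNRNPAB was at 153, 162 and 185 FPKM in DMSO and then at 121, 100 and 144 FPKM with the inhibitor. SUDHL4 HNRNPAB levels went from 139, 144 and 132 FPKM to 67.3, 77.0 and 59.6 FPKM. Farage HNRNPAB levels went from 164, 164 and 155 FPKM to 204, 206 and 208 FPKM. Treated and DMSO libraries were separate in each line, below in SUDHL6 and SUDHL4 and above in Farage. For HNRNPAB, the log2 fold changes were -0.46, -1.02 and 0.35 (SE 0.11 each; limma adjusted p = 0.00258, 1.88e-06 and 0.0138). The Farage call was lost under quantile normalization (0.30, adjusted p = 0.0564), and the SUDHL6 call with that line fitted alone (adjusted p = 0.0583). The HNRNPAB locus shares its span with PHYKPL (mean 12.1 FPKM).

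HNRNPLL (chr2:38789024-38830193), which represses variable exons of CD45 in lymphocytes and takes part in the switch of plasma cells to secreted immunoglobulin, differed most between lines already in DMSO. In SUDHL6, HNRNPLL was at 0.782, 0.863 and 1.10 FPKM in DMSO and then at 2.21, 3.69 and 3.20 FPKM with the inhibitor. SUDHL4 HNRNPLL levels were 19.5, 18.4 and 18.9 FPKM and then 18.9, 17.9 and 19.1 FPKM. Farage HNRNPLL levels went from 3.06, 3.25 and 3.04 FPKM to 1.99, 1.69 and 1.87 FPKM. The gene was low in SUDHL6 and Farage and clearly expressed in SUDHL4, where treated and DMSO libraries overlapped. The highest DMSO mean was 20.7 times the lowest, where SNRPC came next among protein-coding genes of the set at 2.36 times. For HNRNPLL, the log2 fold changes were 1.06, -0.02 and -0.53 (SE 0.11 each; limma adjusted p = 1.04e-06, 0.896 and 0.000542). On the log2(FPKM + 1) scale the change at such low levels is understated.

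HNRNPA1L2 (chr13:53191605-53217919), a retrotransposed copy of HNRNPA1, lies close to its parent in sequence, so that reads of the far more abundant parent (merged locus, mean 815 FPKM) may be counted there and its values are uncertain. In SUDHL6, HNRNPA1L2 was at 4.83, 5.35 and 6.32 FPKM in DMSO and then at 5.64, 6.94 and 8.90 FPKM with the inhibitor. SUDHL4 HNRNPA1L2 levels went from 6.18, 6.38 and 5.68 FPKM to 4.80, 3.88 and 4.60 FPKM. Farage HNRNPA1L2 levels went from 4.12, 3.77 and 3.22 FPKM to 4.58, 4.47 and 4.95 FPKM. Libraries overlapped in SUDHL6 and were separate in the other lines. For HNRNPA1L2, the log2 fold changes were 0.31, -0.39 and 0.27 (SE 0.13 each; limma adjusted p = 0.0465, 0.0165 and 0.0787). The SUDHL6 call was lost without the libraries that stood apart (0.25, adjusted p = 0.0707), where Farage was called instead (0.27, adjusted p = 0.0203), and without most single libraries (adjusted p up to 0.233), and the SUDHL4 call without DMSO replicate 2 (adjusted p = 0.0538) or inhibitor replicate 2 (adjusted p = 0.0743) of SUDHL4. Under quantile normalization SUDHL4 was not called (-0.13, adjusted p = 0.355) and Farage was called higher (0.53, adjusted p = 0.00122).

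HNRNPR (chr1:23628913-23671239), a relative of SYNCRIP that binds RNA in neurons and other cells, fell most in SUDHL4. In SUDHL6, HNRNPR was at 98.7, 97.7 and 132 FPKM in DMSO and then at 83.2, 88.2 and 112 FPKM with the inhibitor. SUDHL4 HNRNPR levels went from 93.6, 87.0 and 86.3 FPKM to 37.3, 38.5 and 34.8 FPKM. Farage HNRNPR levels went from 99.2, 102 and 101 FPKM to 60.8, 66.8 and 66.0 FPKM. The libraries overlapped in SUDHL6 alone. For HNRNPR, the log2 fold changes were -0.21, -1.25 and -0.63 (SE 0.11 each; limma adjusted p = 0.119, 2.51e-07 and 0.00019). With only the first and second replicates, or without inhibitor replicate 3 alone (-0.34, adjusted p = 0.0123), SUDHL6 was called as well, and in the former case the change was -0.20 (adjusted p = 0.0169). With the replicate block it was -0.21 (adjusted p = 0.00428).

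SRSF8 and HNRNPF, the G-run binding relative of HNRNPH1, complete the genes with the clearest differences between lines. In SUDHL6, SRSF8 was at 8.56, 8.25 and 6.64 FPKM in DMSO and then at 6.47, 8.04 and 7.70 FPKM with the inhibitor. SUDHL4 SRSF8 levels went from 14.0, 14.3 and 13.1 FPKM to 6.74, 5.7 and 7.81 FPKM. Farage SRSF8 levels went from 10.6, 10.8 and 10.9 FPKM to 8.59, 8.31 and 9.33 FPKM. SUDHL4 and Farage groups were separate and SUDHL6 groups overlapped, with log2 fold changes of -0.94, -0.28 and -0.07 in SUDHL4, Farage and SUDHL6 (SE 0.11 each; limma adjusted p = 1.99e-06, 0.0326 and 0.611). The Farage call of SRSF8 was lost without any Farage library but inhibitor replicate 3 (adjusted p from 0.0597 to 0.0997), under median-ratio scaling (-0.20, adjusted p = 0.123) and with the replicate block (adjusted p = 0.0677). Quantile normalization ended that call as well (-0.20, adjusted p = 0.0675). In SUDHL6, HNRNPF was at 139, 150 and 188 FPKM in DMSO and then at 96.1, 100 and 120 FPKM with the inhibitor. SUDHL4 HNRNPF levels went from 111, 114 and 108 FPKM to 93.9, 101 and 88.3 FPKM. Farage HNRNPF levels went from 146, 158 and 154 FPKM to 171, 175 and 181 FPKM. Treated libraries lay below DMSO in SUDHL6 and SUDHL4 and above in Farage, and only SUDHL6 was called (-0.58, limma adjusted p = 0.000138), with -0.23 in SUDHL4 (adjusted p = 0.0534) and 0.20 in Farage (adjusted p = 0.0949). HNRNPF was called lower in SUDHL4 and higher in Farage, and so in opposite directions, without the SUDHL6 libraries that stood apart (adjusted p = 0.00203 and 0.00577), with these lines fitted alone (0.0124 and 0.00462), with the replicate block (0.00159 and 0.00384) and with library weights (0.000986 and 0.000982).

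Not every gene of the set could be described this way. SRSF12, HNRNPA3P1, HNRNPCL2, HNRNPKP3 and SNRPD2P2 did not reach the level needed for a test, and SNRPD2P2 was listed at 0 in every library. HNRNPA1P33, a pseudogene of HNRNPA1, was tested, but its group means lay between 0.269 and 1.20 FPKM and it may take reads from its parent. It was called higher in Farage (0.41, adjusted p = 0.0466), a call lost without any single Farage library but DMSO replicate 3 (adjusted p from 0.0527 to 0.133), and with the replicate block it was also lower in SUDHL6 (-0.38, adjusted p = 0.0344). Another 13 loci hold a gene of these families together with neighbours under 1 value, among them HNRNPA1, HNRNPC, HNRNPU, SRSF2 and SNRPA, and they are not members. Of the 12 of these that were tested, 1 was higher and 9 lower on average over the lines, where 35.7 and 44.9% of all loci were. The locus of HNRNPA3 with a microRNA fell by 1.23, 0.76 and 0.83 on the log2 scale in SUDHL6, SUDHL4 and Farage, that of SRSF2 with a microRNA by 0.51, 0.44 and 0.52, and the locus of SF3B4 and MTMR11 was the one that was higher. In such loci the share of each gene cannot be told apart. Of the 42 tested genes, 17 have a locus whose span is shared with another named locus, in 14 cases with a partner at 1 FPKM or more on average, and since strandedness is not given, reads of partners may be mixed there as well.

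Other genes of the splicing pathway were read from 11 lists, of which the counts on the average of the 3 lines are given and no list was tested. On that average 44.9% of all loci were lower and 35.7% higher. Of 14 tested genes of the SMN complex and Sm protein assembly, which load Sm rings onto small nuclear RNA, 10 were lower and 2 higher (median -0.41). By line, 8 were lower and 2 higher in SUDHL6, and 10 and 2 in SUDHL4. In Farage 6 were lower and 3 higher (median -0.20), where 38.0 and 29.2% of all loci were. GEMIN5, which recognises small nuclear RNA for the SMN complex, dropped in SUDHL6 from 12.3 ± 2.83 to 3.47 ± 1.06 FPKM, in SUDHL4 from 16.1 ± 0.916 to 2.69 ± 0.0835 FPKM and in Farage from 11.8 ± 0.593 to 4.46 ± 0.412 FPKM (SD, n = 3). Its average log2 fold change was -1.67 (SE 0.09, limma adjusted p = 2.88e-10), and GEMIN6, another subunit, had -1.28. STRAP, also of this complex, was higher (0.57). The LSm proteins, relatives of the Sm proteins that form the ring of the U6 particle and a ring of mRNA decay, listed with LSM10 of the U7 particle, had 7 of 9 genes lower and 1 higher (median -0.72), led by LSM6 (-1.28) and LSM10 (-1.10), with LSM1 higher (0.41). Among 22 snRNP proteins with other symbols 13 were lower and 7 higher (median -0.22), with PRPF31 (-0.87) and TXNL4A (-0.98) lowest and TXNL4B highest (1.01).

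The factors that act once the spliceosome is assembled went up more often. Of 28 tested genes of the Prp19 complex and the catalytic steps, 19 were higher and 6 lower (median 0.43), where 35.7 and 44.9% of all loci were. BUD31, a protein at the catalytic core, rose from 54.4 ± 8.28 to 138 ± 26.3 FPKM in SUDHL6, from 64.4 ± 14.0 to 263 ± 31.6 FPKM in SUDHL4 and from 38.3 ± 0.318 to 107 ± 2.22 FPKM in Farage (SD, n = 3). RBM22, which contacts the catalytic RNA core, rose by 1.42 on average, and PPIL1 (-1.17) and PRPF19 (-0.78), both associated with the Prp19 complex, fell. Kinases that phosphorylate SR proteins, with a phosphatase regulator and an importer, form another list. CLK1, a nuclear kinase that releases SR proteins from speckles, rose from 42.8 ± 5.38 to 153 ± 31.2 FPKM in SUDHL6, from 33.7 ± 7.64 to 148 ± 12.0 FPKM in SUDHL4 and from 45.9 ± 1.62 to 165 ± 9.03 FPKM in Farage (SD, n = 3; average log2 fold change 1.92, SE 0.09, limma adjusted p = 7.39e-11). CLK3 rose as well (1.42), and SRPK1, the cytoplasmic kinase that sends SR proteins into the nucleus, fell (-1.17). The kinase DYRK2 was lower on the average (-0.24) but by line was called in Farage alone (-0.63). It stood at 0.07 in SUDHL6 and -0.17 in SUDHL4. In all, 8 of 10 tested genes of that list were higher and 2 lower (median 0.40).

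**Figure D4:**
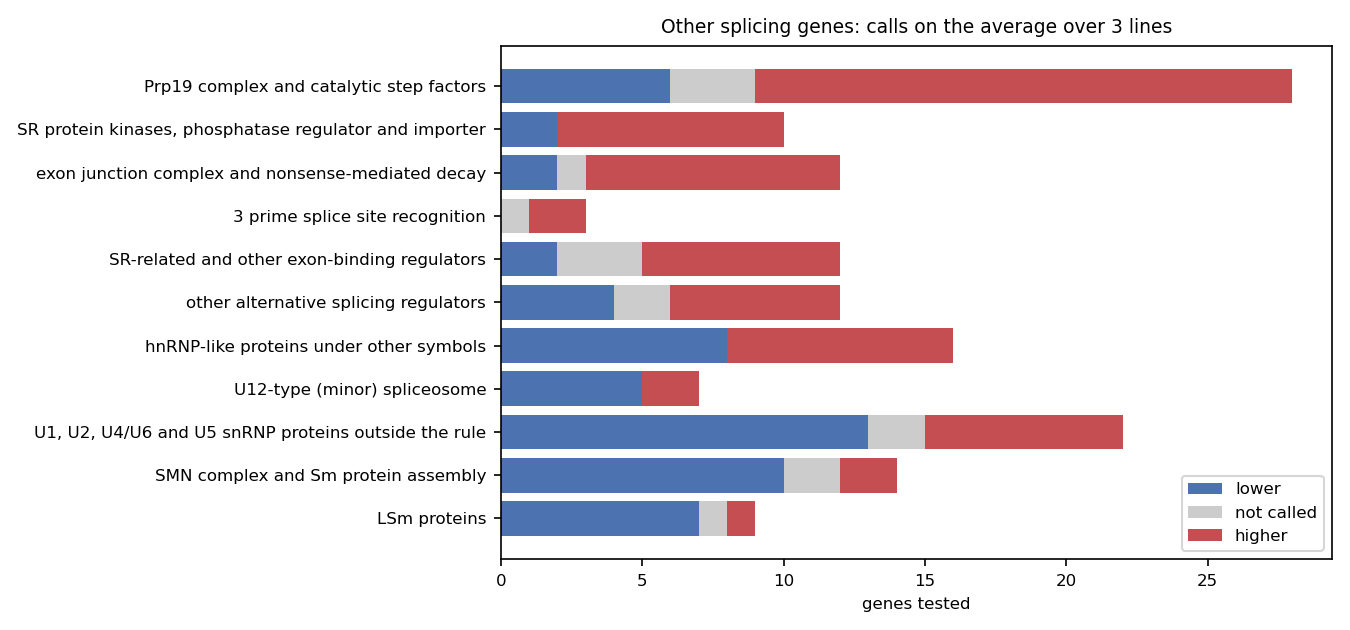
Number of tested genes called lower (blue), not called (grey) and higher (red) on the average of the 3 lines for 11 lists of other splicing genes. Lower calls make up 10 of 14 genes of the SMN complex and 7 of 9 LSm genes, and higher calls make up 19 of 28 genes of the Prp19 and catalytic group.

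The other lists were mixed or small. Of 12 genes of the exon junction complex and nonsense-mediated decay, 9 were higher and 2 lower (median 0.33), with SMG1, a kinase of nonsense-mediated decay, at 0.65 and EIF4A3, the helicase of the junction complex, at 0.64, and with SMG9 (-0.65) and MAGOH (-0.17) lower. EIF4A3 and SMG9 were not called in SUDHL6 (0.10 and -0.34, limma adjusted p = 0.731 and 0.113). MAGOH was called on the average but in no single line (limma adjusted p from 0.0612 to 0.287). SR-related regulators had 7 higher and 2 lower of 12, hnRNP-like proteins under other symbols 8 higher and 8 lower of 16, other alternative splicing regulators 6 higher and 4 lower of 12, the minor spliceosome 2 higher and 5 lower of 7, and proteins of 3′ splice site recognition 2 higher and none lower of 3. PTBP1, a repressor of many exons, was higher (0.76) and TAF15, an RNA-binding protein, lower (-0.51). RBM23 was higher (1.11), as were MBNL2 (1.71), a muscleblind regulator, and SREK1 (0.90), an SR-related protein.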

How the data were processed

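The authors deposited a single table of FPKM values for 34410 loci in 18 libraries, and 26004 of the loci carry a gene name. Per the submitters' processing notes they used CASAVA 1.8, TopHat2 and Cufflinks on hg19. Other versions, the annotation, strandedness and further scaling were not given in the sources used here, and no counting interval is printed because counts are unknown. Named loci that reached 1 FPKM in 3 or more libraries (12201) were modelled on log2(FPKM + 1) in limma 3.58.1 (R 4.3.3), with a mean for each of the 6 groups and an empirical Bayes intensity trend. Contrasts were treatment within a line, the average of these, differences between pairs of lines and a moderated F test of the difference. The method was also run on simulated data, with independent libraries and the same spread per gene in all groups. The third SUDHL6 libraries deviated together, so that run cannot show how the method behaves in SUDHL6. The pseudocount understates fold changes of low genes. Tables and plots used Python 3.11.15, pandas 2.3.3, numpy 2.4.6 and matplotlib 3.10.9.

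The genes and lists were chosen with earlier results of these data known. A B cell marker and a gene of the other splicing lists are not reported here and were left out of the sums and counts. Given with every library value are, per family, the gene with the highest level and the largest called increase and decrease of the average, any gene called in opposite directions, and the 6 smallest adjusted p of the F test. The 3 largest increases and decreases of each line and up to 4 genes of each list were also named. SNRPC, due only fold changes by that rule, has its library values too. Other genes were named to account for the families, after their values were seen. Deviations of treated and DMSO libraries with the same number correlated at 0.309 to 0.664 in SUDHL6 and at -0.0579 to 0.0767 in the other lines. The first and second SUDHL6 replicates also correlated across numbers (0.271 and 0.320), so the data set apart only the third. The block nonetheless treats equal numbers as pairs in every line. Alternatives covered the pseudocount, filter, scaling, replicate block, library weights, single-line fits, a fold threshold and each library left out.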

Additional observations from a re-analysis of the deposited data

Results flagged for a closer look

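In 8 of the genes described with their library values the response to the inhibitor differed between lines in the moderated F test of limma (Benjamini-Hochberg adjusted p). SRSF6 rose in all lines, most in SUDHL6 (adjusted p = 0.0440, and 0.0561 to 0.0809 where leaving out 1 library ended the call, as for 14 of the 18, and 0.0576 without the third SUDHL6 replicates), and only the contrast of SUDHL4 with SUDHL6 passed the pairwise test (-0.53 on the log2 scale, SE 0.17, adjusted p = 0.0297). SF3B3 fell in all lines, most in SUDHL4 (adjusted p = 0.000101), where its change was 0.91 below that of SUDHL6 (-0.91, SE 0.12, adjusted p = 0.000104).

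HNRNPA1L2 (adjusted p = 0.00819), HNRNPAB (adjusted p = 3.68e-05) and HNRNPLL (adjusted p = 4.89e-06) were called in opposite directions in different lines. For HNRNPAB the Farage change exceeded that of SUDHL4 by 1.38 (SE 0.16, adjusted p = 1.62e-05) and that of SUDHL6 by 0.81 (SE 0.16, adjusted p = 0.00141). For HNRNPLL the Farage change was -1.59 relative to SUDHL6 (SE 0.15, adjusted p = 2.55e-06) and -0.51 relative to SUDHL4 (SE 0.15, adjusted p = 0.0177).

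HNRNPR (adjusted p = 0.000395), SRSF8 (adjusted p = 0.000628) and HNRNPF (adjusted p = 0.00139) completed the group. The SUDHL4 change lay below that of SUDHL6 by 1.04 for HNRNPR (-1.04, SE 0.16, adjusted p = 0.00028) and by 0.87 for SRSF8 (-0.87, SE 0.15, adjusted p = 0.000585). For HNRNPF the Farage change exceeded that of SUDHL6 by 0.78 (SE 0.14, adjusted p = 0.00073).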

How the results depend on the processing

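The result of each tested gene was compared with its value under each alternative other than the fold threshold, 5791 comparisons in all. Of these, 5388 kept their call or lack of a call, 239 lost the call, 164 gained it and 0 changed direction while called. Leaving out libraries of 1 line cannot move the log2 fold changes of the other lines. Such comparisons could not change direction, and calls there could change only through the pooled spread and the adjustment. A result called in neither case counts as kept even if its sign changed, and the F test has no direction. The fold threshold ended 61 calls and left 107 results as they were. With a minimum log2 fold change of 0.5 the counts of genes higher and lower were 4 and 10 in SUDHL6, 3 and 16 in SUDHL4, 1 and 9 in Farage, and 3 and 12 on average. Library weights left 5 genes higher in SUDHL6, and SUDHL6 fitted alone left 4, in place of 8. With SUDHL6 fitted alone, 9 of its calls were lost (limma adjusted p from 0.0583 to 0.227). They were those of HNRNPA1L2, HNRNPA2B1, HNRNPAB, HNRNPH3, HNRNPM, SF3B3, SNRPA1, SRSF5 and SRSF11. Genes that differed between lines numbered 18, 28 with the replicate number as a block and 30 with library weights. Leaving out 1 library gave 10 to 22 of these (lowest without SUDHL4 DMSO replicate 2, and 11 without SUDHL4 inhibitor replicate 1). It gave 6 to 10 higher and 17 to 22 lower genes in SUDHL6, 4 to 7 and 24 to 28 in SUDHL4 (4 without inhibitor replicate 2), 6 to 9 and 15 to 20 in Farage, and 7 to 9 and 25 to 26 on average. The causes were not tested. In Farage 30.8% of called genes were higher, 44.4% after median-ratio scaling and 25.9% after quantile normalization. The block changed no SUDHL6 call beyond those of SRSF9, SRSF10, HNRNPA1P33, HNRNPL, HNRNPR, SF3A1, SNRPB and SNRPG, all gained. Lines fitted alone give neither an average nor a difference between lines.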
